A study of Mus musculus with 6 samples.

Results

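BMP signalling and the Id genes were followed through 10 genes in mouse podocytes kept in high glucose (HG) with or without fibroblast growth factor 1 (FGF1). The genes are the Id family (*Id1*, *Id2*, *Id3* and *Id4*), the ligand gene *Bmp4*, the receptor genes *Bmpr1a* and *Bmpr2*, *Smad1*, the inhibitory *Smad6*, and *Grem1*, which encodes a BMP antagonist. They were picked by name, and all 10 were found among the 24469 loci of the deposited expression table, each at 1 locus. The cells (MPCs) are a murine podocyte line at passage 10 to 15, differentiated for 10 days without interferon gamma and deprived of serum for 12 h. All groups then received 25 mM glucose for 12 h. The HG group had no pretreatment, the rFGF1 WT group had 1 h with recombinant wild-type FGF1 at 100 ng/mL, and the rFGF1 ΔHBS group had 1 h with 100 ng/mL of a recombinant FGF1 altered in its heparan sulfate binding site. Each group holds 2 libraries of poly(A) RNA. No library of cells outside high glucose was used here, so the effect of glucose itself could not be measured.

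BMP ligands bring type I and type II receptor kinases together at the cell surface, and the type I receptor phosphorylates Smad1, Smad5 and Smad9, which enter the nucleus with Smad4. The Id genes are among their best known direct targets: Id proteins lack a DNA-binding region and hold E proteins and other basic helix-loop-helix factors away from DNA. In the kidney the pathway is held in check by secreted antagonists, and gremlin, the product of *Grem1*, has been linked to diabetic kidney disease.

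Levels are FPKM, fragment counts scaled to transcript length and to library size, so that genes can be set beside each other. Read totals were not used here. The summed FPKM of a library ran from 179594 to 185168. The relative depth, read from the smallest steps in low values and set to 1 for HG replicate 1, was between 0.973 and 1.01 in the other libraries. Across the 10562 loci with a mean of at least 1 FPKM, the correlation between replicates was 0.916 to 0.923 and that between libraries of different groups was 0.895 to 0.924. These ranges overlapped. Nothing in the labels says whether replicates were separate cultures, so the p-values measure the spread between these libraries, which may be technical.

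*Bmpr1a* fell in both FGF1 groups. *Id4* was called lower in both as well, but it passed the limit of a mean of 1 FPKM only through its HG level, so its place among the tested genes is tied to its being high in HG. With no such limit its adjusted p was 0.0446 after rFGF1 WT and 0.0489 after rFGF1 ΔHBS. No other listed gene passed the test in any comparison. After rFGF1 WT, 2 of the 9 genes tested were lower than in HG and 0 were higher (limma, adjusted p under 0.05, 3 at an unadjusted p under 0.05). Of all tested loci, 2.94% were called lower and 3.26% higher. After rFGF1 ΔHBS, again 2 of 9 were lower than in HG and 0 were higher (4 at an unadjusted p under 0.05), against 2.89% of loci called lower and 3.37% higher. Both counts include *Id4*, and without it they are 1 of 8, so nothing is read from them against these shares. An unadjusted p under 0.05 was met by 2616 of the 10562 loci after rFGF1 WT and by 2632 after rFGF1 ΔHBS. Both comparisons use the same HG libraries and are not independent. At a change of at least 2-fold as well, *Bmpr1a* and *Id4* stayed called, against a background of 1.01% of loci after rFGF1 WT and 0.899% after rFGF1 ΔHBS. The median log2 fold change of the 9 genes was −0.20 after rFGF1 WT and −0.11 after rFGF1 ΔHBS, and that of all tested loci was −0.04 in both. *Grem1* was below the limit and was not tested.

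The HG libraries lay outside the span of the 4 FGF1 libraries for 5 of the 9 tested genes, against 42.6% of all tested loci. *Bmpr1a*, *Bmpr2*, *Id3* and *Id4* were higher in HG and *Id1* was lower. *Bmp4*, *Id2*, *Smad1* and *Smad6* overlapped between HG and FGF1.

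**Figure D1:**
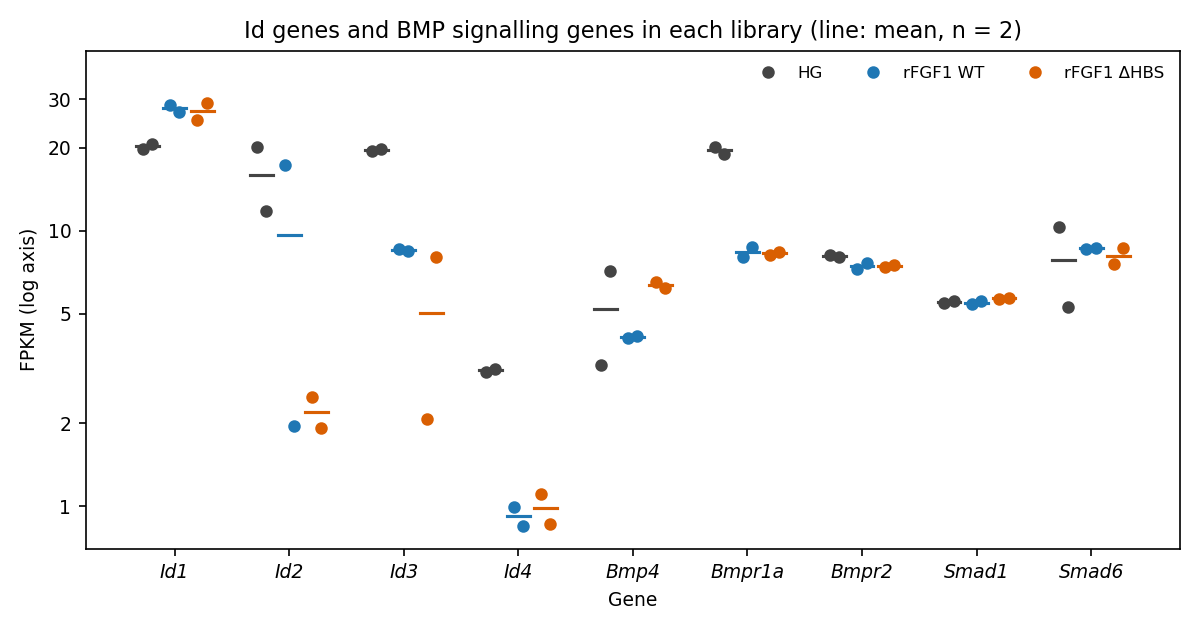
FPKM (log axis) of 9 of the 10 genes in each library, with a point for each library, a line for the mean of a group (n = 2), and colours for HG, rFGF1 WT and rFGF1 ΔHBS. *Grem1*, at or near 0, is not drawn. *Bmpr1a* lies at 19.1 and 20.2 in HG and between 8.04 and 8.72 in the 4 FGF1 libraries, while the *Id2* points spread from 1.95 to 17.4 within rFGF1 WT alone.

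Among the ligands, *Bmp4* measured 3.25 and 7.16 FPKM in HG, 4.09 and 4.14 after rFGF1 WT, and 6.53 and 6.18 after rFGF1 ΔHBS. The HG libraries bracketed all 4 FGF1 libraries, so the ligand's level in HG is not well fixed by these data. Its log2 fold change was −0.20 after rFGF1 WT (SE 0.32, adjusted p = 0.741) and 0.32 after rFGF1 ΔHBS (SE 0.32, adjusted p = 0.590). Each sign rests on 1 HG library: without HG replicate 2 the first became 0.27, and without HG replicate 1 the second became −0.15. The most abundant ligand gene of the pathway was *Bmp6*, at 47.5 and 16.2 FPKM in HG, 43.0 and 42.0 after rFGF1 WT, and 39.9 and 40.4 after rFGF1 ΔHBS. HG replicate 2 was the low library there, and *Bmp6* passed no test (adjusted p = 0.525 after rFGF1 WT and 0.584 after rFGF1 ΔHBS).

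*Grem1*, the gene of the antagonist gremlin, was close to absent from every library. It was listed at 0.0104 and 0.0108 FPKM in HG, at 0 and 0.0106 after rFGF1 WT, and at 0 in both rFGF1 ΔHBS libraries. Multiplied by the relative depth, the values above 0 became 0.0104, 0.0105 and 0.0105, a single common step, so a difference between the groups was not detectable at this depth. Another antagonist gene, *Fst* (follistatin, which binds activins and some BMPs), stood at 1.60 and 1.59 FPKM in HG, 3.55 and 3.01 after rFGF1 WT, and 3.03 and 3.25 after rFGF1 ΔHBS. All 4 FGF1 libraries were above both HG libraries. *Fst* rose by 0.72 on the log2 scale after rFGF1 WT (SE 0.09, adjusted p = 0.0299) and by 0.67 after rFGF1 ΔHBS (SE 0.09, adjusted p = 0.0345). Neither call held when any 1 of the 6 libraries was left out (adjusted p from 0.0656 to 0.116 after rFGF1 WT and from 0.0580 to 0.127 after rFGF1 ΔHBS). The antagonist-related gene with the highest level was *Fstl1*, between 77.0 and 85.9 FPKM, which was not called.

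*Bmpr1a* encodes a type I BMP receptor and had the smallest adjusted p of the 9 tested genes in both comparisons with HG. It measured 20.2 and 19.1 FPKM in HG, 8.04 and 8.72 after rFGF1 WT, and 8.18 and 8.39 after rFGF1 ΔHBS. The 4 FGF1 libraries were all far below both HG libraries and close to each other. The rFGF1 WT mean was 42.7% of the HG mean and the rFGF1 ΔHBS mean was 42.3% of it. *Bmpr1a* fell by 1.14 on the log2 scale after rFGF1 WT (SE 0.07, adjusted p = 0.00776) and by 1.15 after rFGF1 ΔHBS (SE 0.07, adjusted p = 0.00881). With each library left out in turn, the log2 fold change ran from −1.19 to −1.08 after rFGF1 WT and from −1.19 to −1.11 after rFGF1 ΔHBS. With replicate number as a block both calls were lost (adjusted p = 0.0521 and 0.0610). In a bulk library, fewer cells carrying a transcript and less transcript in each cell cannot be told apart.

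Among the type I receptor genes (*Bmpr1a*, *Bmpr1b*, *Acvr1* and *Acvrl1*), *Bmpr1a* supplied 89.4% and 90.3% of the summed FPKM in HG, 78.1% and 78.5% after rFGF1 WT, and 73.7% and 73.2% after rFGF1 ΔHBS. It was the leading type I receptor gene in every library, with a smaller share in the 4 FGF1 libraries. *Acvr1*, another type I receptor gene, made up most of the rest, at 2.35 and 1.99 FPKM in HG, 2.24 and 2.31 after rFGF1 WT, and 2.91 and 3.05 after rFGF1 ΔHBS. It passed no test (adjusted p = 0.765 after rFGF1 WT, 0.117 after rFGF1 ΔHBS, and 0.905 between the FGF1 groups).

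*Bmpr2*, a type II receptor gene, measured 8.16 and 8.05 FPKM in HG, 7.28 and 7.66 after rFGF1 WT, and 7.40 and 7.50 after rFGF1 ΔHBS. The FGF1 libraries were lower than HG by a small margin. Its log2 fold change was −0.10 after rFGF1 WT (95% interval −0.26 to 0.05, adjusted p = 0.337) and −0.11 after rFGF1 ΔHBS (95% interval −0.26 to 0.04, adjusted p = 0.331). The ratio of *Bmpr1a* to *Bmpr2* FPKM was 2.47 and 2.37 in HG, 1.10 and 1.14 after rFGF1 WT, and 1.11 and 1.12 after rFGF1 ΔHBS. *Bmpr1a* thus exceeded *Bmpr2* by a wide margin in HG and by a narrow one in the 4 FGF1 libraries. Other receptor genes of either type do not enter this ratio.

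*Smad1*, which carries the signal from the receptors, varied little. It measured 5.44 and 5.57 FPKM in HG, 5.42 and 5.55 after rFGF1 WT, and 5.67 and 5.70 after rFGF1 ΔHBS. The groups were close to each other, with HG and rFGF1 WT overlapping. The 95% interval of its log2 fold change ran from −0.15 to 0.14 after rFGF1 WT and from −0.11 to 0.19 after rFGF1 ΔHBS. The sign after rFGF1 WT (−0.01) turned under other scalings, to 0.03 with median-ratio scaling and 0.04 with quantile normalization. *Smad5*, which does the same work and was above *Smad1* in every library, measured 5.95 and 7.03 FPKM in HG, 14.1 and 15.5 after rFGF1 WT, and 7.80 and 16.6 after rFGF1 ΔHBS. All 4 FGF1 libraries were above HG, but rFGF1 ΔHBS replicate 1 was close to HG, and *Smad5* was not called (log2 fold change 1.08, adjusted p = 0.164 after rFGF1 WT, and 0.74, adjusted p = 0.295 after rFGF1 ΔHBS).

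*Smad6*, an inhibitory Smad that is itself a BMP target, measured 10.3 and 5.30 FPKM in HG, 8.58 and 8.67 after rFGF1 WT, and 7.56 and 8.62 after rFGF1 ΔHBS. As for *Bmp4*, the HG libraries bracketed the others. Its log2 fold change was 0.19 after rFGF1 WT (SE 0.30, adjusted p = 0.736) and 0.10 after rFGF1 ΔHBS (SE 0.30, adjusted p = 0.871). Without HG replicate 2, the low one, these became −0.24 and −0.32. In the same role group the ubiquitin ligase gene *Smurf1* had the highest level, between 12.9 and 19.0 FPKM, and was not called.

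The 4 Id genes did not share 1 pattern. *Id1* measured 19.8 and 20.6 FPKM in HG, 28.6 and 27.0 after rFGF1 WT, and 25.2 and 29.0 after rFGF1 ΔHBS. All 4 FGF1 libraries were higher than both HG libraries, at 138% of the HG mean after rFGF1 WT and 134% after rFGF1 ΔHBS. The test was not passed: the log2 fold change was 0.44 after rFGF1 WT (95% interval 0.21 to 0.67, adjusted p = 0.0665) and 0.40 after rFGF1 ΔHBS (95% interval 0.17 to 0.63, adjusted p = 0.0762).

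*Id4* had the lowest level of the 4 and was the Id gene that was called. It was among the tested genes only through its HG level, so this call is tied to its being high in HG. It measured 3.07 and 3.16 FPKM in HG, 0.993 and 0.848 after rFGF1 WT, and 1.10 and 0.862 after rFGF1 ΔHBS. The groups given FGF1 lay below HG without overlap, at 29.6% of the HG mean after rFGF1 WT and 31.6% after rFGF1 ΔHBS. *Id4* fell by 1.10 on the log2 scale after rFGF1 WT (SE 0.10, adjusted p = 0.0172) and by 1.05 after rFGF1 ΔHBS (SE 0.10, adjusted p = 0.0201). At such low levels the 1 FPKM added before taking logarithms draws the values together, and with 0.1 added the log2 fold changes were −1.66 and −1.58. The call after rFGF1 WT was lost without HG replicate 1 (adjusted p = 0.0767), HG replicate 2 (0.0715), rFGF1 WT replicate 1 (0.0669) or rFGF1 WT replicate 2 (0.0703), and that after rFGF1 ΔHBS was lost without any 1 of the 6 libraries (adjusted p from 0.0536 to 0.0812). With replicate number as a block the adjusted p was 0.0698 after rFGF1 WT and 0.0737 after rFGF1 ΔHBS.

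*Id3* measured 19.4 and 19.8 FPKM in HG, 8.59 and 8.46 after rFGF1 WT, and 2.07 and 8.01 after rFGF1 ΔHBS. Both HG libraries were above all FGF1 libraries, and rFGF1 ΔHBS replicate 1 stood far below the other 3 of these. The log2 fold change was −1.11 after rFGF1 WT (SE 0.53, adjusted p = 0.287) and −1.97 after rFGF1 ΔHBS (SE 0.53, adjusted p = 0.114), neither of them called. The spread between the rFGF1 ΔHBS replicates enters both errors, since the 6 libraries share 1 estimate. Without rFGF1 ΔHBS replicate 1 the adjusted p was 0.0236 after rFGF1 WT and 0.0246 after rFGF1 ΔHBS (log2 fold change −1.19). Without rFGF1 ΔHBS replicate 2 it was 0.0245 after rFGF1 WT and 0.0135 after rFGF1 ΔHBS (log2 fold change −2.75). Leaving out an HG or rFGF1 WT library gave an adjusted p of at least 0.190 in either comparison.

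*Id2* had the widest spread between replicates, with an 8.90-fold ratio between the rFGF1 WT libraries. It measured 20.2 and 11.8 FPKM in HG, 17.4 and 1.95 after rFGF1 WT, and 2.49 and 1.92 after rFGF1 ΔHBS. rFGF1 WT replicate 1 lay in the range of HG and rFGF1 WT replicate 2 in that of rFGF1 ΔHBS, while both rFGF1 ΔHBS libraries were below both HG libraries. The log2 fold change was −1.16 after rFGF1 WT (SE 0.93, adjusted p = 0.499) and −2.37 after rFGF1 ΔHBS (SE 0.93, adjusted p = 0.219). Without rFGF1 WT replicate 1 the first was −2.48 (adjusted p = 0.0998), and without rFGF1 WT replicate 2 it was 0.16 (adjusted p = 0.854).

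Added together, the 4 Id genes reached 62.5 and 55.4 FPKM in HG, 55.6 and 38.2 after rFGF1 WT, and 30.9 and 39.8 after rFGF1 ΔHBS. *Id1* made up 31.7% and 37.2% of that sum in HG, 51.5% and 70.6% after rFGF1 WT, and 81.6% and 72.9% after rFGF1 ΔHBS. In HG, *Id1*, *Id2* and *Id3* were of similar weight except for a smaller *Id2* share in replicate 2. In the FGF1 libraries *Id1* held the largest share, and the rFGF1 WT replicates differed through *Id2*, which held 31.2% of the sum in replicate 1 and 5.10% in replicate 2. *Id4* was the smallest part in every library, from 1.79% to 5.70%. The ratio of *Id1* to *Id4* FPKM was 6.46 and 6.53 in HG, 28.8 and 31.8 after rFGF1 WT, and 22.8 and 33.7 after rFGF1 ΔHBS.

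**Figure D2:**
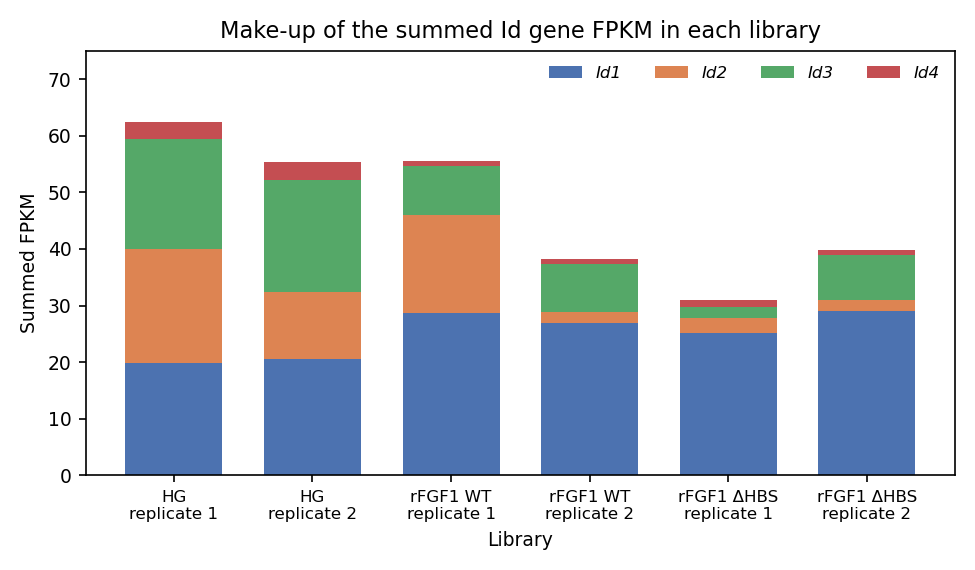
Summed FPKM of the 4 Id genes in each library (bars start at 0), split by gene, with a bar for each of the 6 libraries. The *Id1* part is 31.7% and 37.2% of the bar in HG and between 51.5% and 81.6% in the FGF1 libraries, and the *Id2* part is large in HG and in rFGF1 WT replicate 1.

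The order of the levels differed between the groups. In HG, *Id1* (mean 20.2 FPKM), *Id3* (19.6) and *Bmpr1a* (19.6) stood together at the top, with *Id2* (16.0) reaching into their range through replicate 1. *Bmpr2*, *Smad6*, *Smad1* and *Bmp4* followed, with ranges that overlapped through the wide spread of *Smad6* and *Bmp4*, then *Id4* and *Grem1*. After rFGF1 WT, *Id1* (27.8) was alone at the top. *Smad6* (8.62), *Id3* (8.52) and *Bmpr1a* (8.38) lay within the spread of *Id2* (9.66) and could not be ranked among themselves beyond their spread. After rFGF1 ΔHBS, *Id1* (27.1) was again alone, followed by *Bmpr1a* (8.29) and *Smad6* (8.09), which overlapped, while *Id3* (5.04) reached over several neighbours because its replicates differed and *Id2* (2.20) stood below *Smad1*. *Id4* and *Grem1* were the lowest in every group.

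The direct comparison asks whether the altered FGF1 acts on these genes differently from the wild-type protein. For rFGF1 ΔHBS against rFGF1 WT, limma called 0 of the 9 tested genes (0 at an unadjusted p under 0.05), against 0.294% of loci called higher, 0.256% called lower, and 0.350% with at least 2-fold as well. The 95% interval of the log2 difference was narrow for *Bmpr1a* (−0.19 to 0.16). It was of similar width for *Bmpr2* (−0.15 to 0.15) and somewhat wider for *Id1* (−0.27 to 0.19) and *Id4* (−0.24 to 0.33). For these genes a 2-fold difference in FPKM + 1 between the proteins lies outside the interval. For *Id2* (−3.71 to 1.298), *Id3* (−2.27 to 0.56) and *Bmp4* (−0.35 to 1.40) the intervals were wide and take in a difference of 2-fold. Without rFGF1 ΔHBS replicate 2, *Id3* was called lower after rFGF1 ΔHBS than after rFGF1 WT (log2 fold change −1.63, adjusted p = 0.0287). Without rFGF1 ΔHBS replicate 1 it was not (−0.08, adjusted p = 0.979).

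A wider list of 57 pathway genes includes the 10 genes, so *Bmpr1a* and *Id4* are counted again, *Id4* with the limit given above. Of the 57, 51 were in the table and 27 were tested. Of the tested genes, 18 are outside the 10 genes. Among these 18, *Fst* was called with either protein and *Atoh8* only after rFGF1 ΔHBS. After rFGF1 WT, 1 rose (*Fst*) and 2 fell (*Bmpr1a* and *Id4*), with 10 at an unadjusted p under 0.05 and a median log2 fold change of −0.10. After rFGF1 ΔHBS, 1 rose (*Fst*) and 3 fell (*Bmpr1a*, *Id4* and *Atoh8*), with 11 at an unadjusted p under 0.05 and a median of 0.04. Between the FGF1 groups limma called 0 of 27 (2 at an unadjusted p under 0.05), with a median of −0.02. Over all tested loci, 3.26% were called higher and 2.94% lower after rFGF1 WT, 3.37% and 2.89% after rFGF1 ΔHBS, and the counts at an unadjusted p under 0.05 were 2616, 2632 and 514 of 10562. With 1 library left out the counts were 1 to 3 in each comparison with HG. Without rFGF1 ΔHBS replicate 1 or rFGF1 ΔHBS replicate 2 the count between the FGF1 groups was 1. *Atoh8*, a basic helix-loop-helix gene known as a BMP target, measured 6.71 and 7.66 FPKM in HG, 3.64 and 4.29 after rFGF1 WT, and 2.88 and 3.63 after rFGF1 ΔHBS. Both FGF1 groups were below HG. *Atoh8* fell by 0.95 on the log2 scale after rFGF1 ΔHBS (SE 0.13, adjusted p = 0.0354), and its log2 fold change after rFGF1 WT was −0.72 (adjusted p = 0.0613). The call after rFGF1 ΔHBS was lost with any 1 of the 6 libraries left out (adjusted p from 0.0755 to 0.134).

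**Figure D3:**
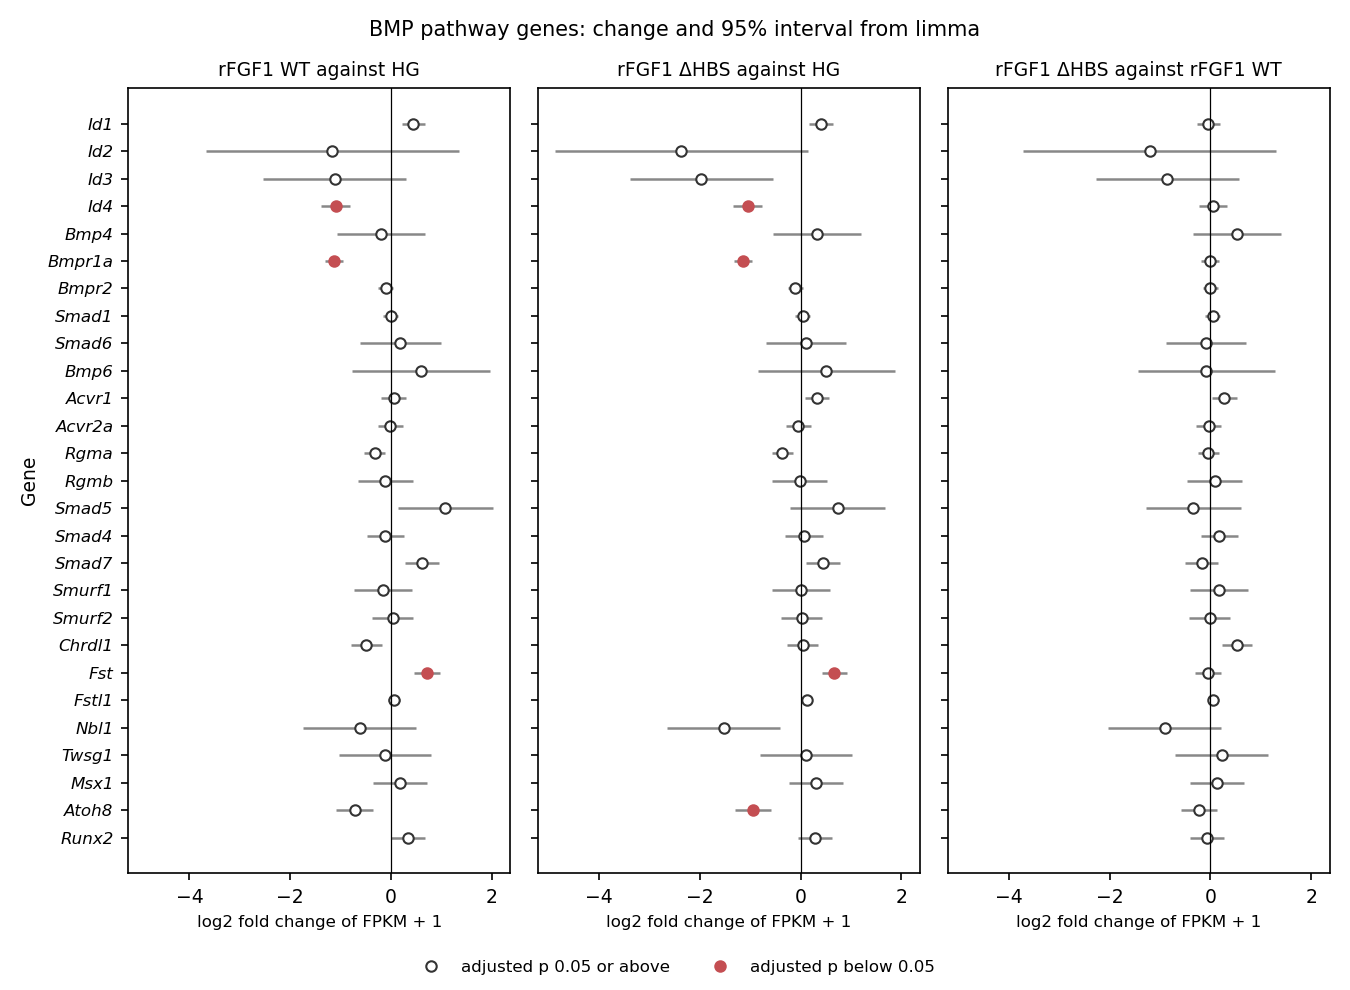
Log2 fold change of FPKM + 1 with its 95% interval from limma for the 27 tested pathway genes, in 3 panels for rFGF1 WT against HG, rFGF1 ΔHBS against HG, and rFGF1 ΔHBS against rFGF1 WT. Filled points mark an adjusted p under 0.05: *Id4*, *Bmpr1a* and *Fst* in both comparisons with HG, *Atoh8* after rFGF1 ΔHBS, and none between the FGF1 groups.

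The partners of the Id proteins were also measured. Of 9 listed partner genes, 8 were in the table and 6 were tested, and limma called 0 in each of the 3 comparisons (0 at an unadjusted p under 0.05 in each). At the shares of all loci called against HG (3.26% higher and 2.94% lower after rFGF1 WT, 3.37% and 2.89% after rFGF1 ΔHBS), a count of 0 among 6 genes says little about them. At an unadjusted p under 0.05 the counts over all 10562 loci were 2616, 2632 and 514. The most abundant was *Tcf3*, an E protein gene, at 34.0 and 34.7 FPKM in HG, 31.9 and 33.8 after rFGF1 WT, and 29.2 and 34.3 after rFGF1 ΔHBS. It was the highest of the 3 E protein genes, and its HG and rFGF1 ΔHBS ranges overlapped. Its 95% interval ran from −0.31 to 0.18 after rFGF1 WT and from −0.36 to 0.13 after rFGF1 ΔHBS. *Twist2*, the highest of the other basic helix-loop-helix genes, measured between 10.9 and 20.5 FPKM and was not called.

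By correlation of log2 values over the 6 libraries, given as a description, the loci most like *Id1* were a locus merged from *Lrrc71* and *Pear1*, then *Carmil1*, *Prodh* and *Hmga1* (r from 0.997 to 0.994). Those most like *Id2*, whose log2 fold change of FPKM + 1 after rFGF1 ΔHBS was the largest of the 9 tested genes although not called, were *1810055G02Rik*, *Gm14150*, *Rps4x*, *Klf13* and *Cdca3* (r from 0.988 to 0.983). *Gm14150* was listed at 32.0 and 27.2 FPKM in HG, at 33.1 and 0 after rFGF1 WT, and at 0 in both rFGF1 ΔHBS libraries. It shares with *Id2* the high value in rFGF1 WT replicate 1 and the low one in rFGF1 WT replicate 2.

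The podocyte label was read against marker genes. *Actn4*, *Cd2ap*, *Podxl* and *Synpo* were expressed, with *Actn4* the highest at 83.2 to 106 FPKM. These genes went opposite ways. *Synpo* was at 47.7% of the HG mean after rFGF1 WT and 58.9% after rFGF1 ΔHBS, and *Podxl* at 91.2% and 89.4%. *Actn4* was at 120% and 121%, and *Cd2ap* at 126% and 114%. The defining genes *Wt1* (at most 0.0731 FPKM), *Lmx1b* and *Ptpro* were at or near 0, and *Nphs1* was between 0.618 and 0.942 FPKM. Of the 4 expressed genes limma called 0 against HG, with 2 at an unadjusted p under 0.05 after rFGF1 WT and 2 after rFGF1 ΔHBS. Such counts for markers stand beside 2616 and 2632 of the 10562 tested loci.

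Markers of other kidney cells differed between the groups in part. The tubular list (5 genes, 3 in the table, 2 tested, led by *Aqp1*) summed to 73.3 and 61.6 FPKM in HG, 44.1 and 47.6 after rFGF1 WT, and 40.5 and 49.7 after rFGF1 ΔHBS, with *Cdh1* at most 0.0182 FPKM. Here limma called 0 of the 2 against HG, with both at an unadjusted p under 0.05. All 4 FGF1 tubular sums were below both HG sums. For single loci, HG lay outside the span of the FGF1 libraries in 42.6% of those tested, in either direction. Of the 4 macrophage genes, *Csf1r* measured 9.56 and 10.7 FPKM in HG, 3.21 and 3.68 after rFGF1 WT, and 3.93 and 3.76 after rFGF1 ΔHBS. *Csf1r* fell in both (adjusted p = 0.0114 after rFGF1 WT and 0.0140 after rFGF1 ΔHBS), while the locus that merges *Cd68* with *Eif4a1* was called higher (adjusted p = 0.0496 and 0.0363), and *Ptprc* (at most 0.0548 FPKM) and *Adgre1* (at most 0.0136) were near 0. The summed macrophage list was 62.7 and 60.8 FPKM in HG, 69.5 and 66.8 after rFGF1 WT, and 71.1 and 71.0 after rFGF1 ΔHBS. Most of this sum is the merged *Cd68* and *Eif4a1* locus (53.1 and 50.1 FPKM in HG), so it does not measure macrophage genes alone. The mesangial and fibroblast list, 6 genes led by *Pdgfrb*, summed to 42.3 to 48.3 FPKM with 0 of 3 tested genes called by limma (3 after rFGF1 WT and 2 after rFGF1 ΔHBS at an unadjusted p under 0.05). Its tested genes went opposite ways: *Pdgfrb* was at 83.3% of the HG mean after rFGF1 WT and 83.2% after rFGF1 ΔHBS, *Col1a1* at 73.6% and 79.9%, and *Acta2* at 146% and 122%. The endothelial list, 5 genes led by *Cdh5*, stayed at or below 0.167 FPKM. The part of these markers in the results for *Bmpr1a* and *Id4* was not tested.

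*Bmpr1a* spans chr14:34410734-34503341 on the minus strand and *Id4* spans chr13:48261228-48266026 on the plus strand (GRCm38). The *Bmpr1a* locus in the table joins 7 transcripts, 4 of them assembled from the reads, and the *Id4* locus holds 1 annotated transcript. Exons of antisense genes overlap both: *Gm17110* (at most 0.0791 FPKM) at *Bmpr1a*, and *A330033J07Rik* (at most 0.202 FPKM) and *Gm49291* at *Id4*. *Gm49291* has no locus in these data, so its level is not known. *Gm17110* and *A330033J07Rik* were far below the genes they overlap, and whether the libraries kept the strand was not stated.

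Promoters are shown for *Bmpr1a* and *Id4*, the genes called lower in both FGF1 groups, with *Bmp4* as one that was not called. *Id4* was tested only through its HG level. RefSeq (GRCm38.p6) promoters matched 9 of the 10 genes, *Id1* having no entry. The 250 bases before the start were searched on both strands for GGCGCC and GTCTG (motifs bound by Smads), CANNTG (the E-box of basic helix-loop-helix factors) and CCAAT, which occur in 9.59%, 42.2%, 66.2% and 33.8% of 32851 promoters of that length. GGCGCC was present in 5 of the 9 (*Id2*, *Id4*, *Bmpr1a*, *Bmpr2* and *Grem1*), GTCTG in 2 (*Id3* and *Grem1*), CANNTG in 2 (*Id2* and *Bmp4*) and CCAAT in 5 (*Id2*, *Id4*, *Bmpr1a*, *Smad1* and *Grem1*). Part of these windows is transcribed: annotated exons of the gene cover all 250 bases for *Id3* and *Bmpr2* and part of them for *Id2*, *Bmpr1a* and *Smad1*. In the *Bmpr1a* window, which lies inside the bounds of the gene, its own exons cover 141 bases and exons of the antisense gene *Gm17110* cover 138, and the 109 bases shown lie outside both. Outside exons, GGCGCC was present for 4 (*Id2*, *Id4*, *Bmpr1a* and *Grem1*), GTCTG for 1 (*Grem1*), CANNTG for 2 (*Id2* and *Bmp4*) and CCAAT for 2 (*Id4* and *Grem1*), while the shares over all promoters were taken without regard to exons. None of these motifs contains another. A match describes letters and is not a binding site. Each sequence is read 5′ to 3′ on the gene's strand, with matches in capitals: *Id4* at chr13:48260866-48261115 (plus), the part of *Bmpr1a* free of annotated exons at chr14:34502688-34502796 (minus), and *Bmp4* at chr14:46390670-46390919 (minus).
Id4: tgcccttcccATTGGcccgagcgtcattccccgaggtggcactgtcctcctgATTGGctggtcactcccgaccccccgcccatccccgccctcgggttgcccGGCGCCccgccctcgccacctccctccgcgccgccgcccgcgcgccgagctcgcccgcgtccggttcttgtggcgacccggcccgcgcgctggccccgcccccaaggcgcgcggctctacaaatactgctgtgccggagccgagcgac
Bmpr1a: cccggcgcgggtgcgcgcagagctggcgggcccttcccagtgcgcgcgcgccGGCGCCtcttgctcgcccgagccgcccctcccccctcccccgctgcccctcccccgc
Bmp4: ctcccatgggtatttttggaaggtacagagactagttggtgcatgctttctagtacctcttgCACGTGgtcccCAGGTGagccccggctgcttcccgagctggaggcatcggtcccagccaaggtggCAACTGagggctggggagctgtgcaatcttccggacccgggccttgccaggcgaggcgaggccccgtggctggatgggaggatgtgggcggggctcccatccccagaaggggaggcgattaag
*Id4* and *Bmpr1a* each show 1 GGCGCC, and *Id4* also shows 2 CCAAT matches in reverse (ATTGG). *Bmp4* shows 3 CANNTG matches and none of the others. The G and C content was 75.6% for *Id4* and 63.2% for *Bmp4*, against a median of 52.4% over all promoters. For *Bmpr1a* it was 78.8% over the 250 bases and 84.4% in the 109 bases shown.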

How the data were processed

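The 6 libraries (2 each of HG, rFGF1 WT and rFGF1 ΔHBS) were read from 1 table of FPKM values deposited by the authors. The submitters' processing notes name Bowtie 0.12.2, HISAT2 2.0 and StringTie 1.3.0 with build mm8. The table holds no coordinates, and positions came from GENCODE M21 (GRCm38) through its Ensembl transcripts. Differences were computed with limma 3.58.1 (R 4.3.3; lmFit, contrasts.fit, eBayes with trend, two-sided) on log2(FPKM + 1) for all 6 libraries in 1 fit with 3 residual degrees of freedom. Of 24469 loci, the 10562 with a mean of at least 1 FPKM were tested, p-values were adjusted over these (Benjamini-Hochberg), and an adjusted p under 0.05 was called. Alternatives were other pseudocounts, filters, scalings, robust eBayes, a replicate block, fits of 4 libraries, and each library left out. All 10 genes are named. From the wider lists, called genes and the most abundant gene of each role are named, and *Acvr1*, *Smad5*, *Gm14150* and the marker genes are given as context. Some marker and similarity results are not reported here. Genes and lists were chosen with earlier results of these data known.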

Additional observations from a re-analysis of the deposited data

How the results depend on the processing

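Over 33 gene results, 453 values under other settings were computed: 386 kept the direction and the side of the threshold, 42 lost a call, 6 gained one and 19 changed sign. *Bmpr1a* was called in 13 of 14 alternatives in each comparison with HG (log2 fold change −1.22 to −1.08 after rFGF1 WT, −1.23 to −1.11 after rFGF1 ΔHBS). *Id4* was called in 8 of 13 after rFGF1 WT and 5 of 13 after rFGF1 ΔHBS, *Fst* in 4 of 13 in each, and *Atoh8* in 4 of 13 after rFGF1 ΔHBS. *Id4*, *Fst* and *Atoh8* have no value at a mean of 5 FPKM. With a left-out library, a group of 1 is assumed to vary like the others.

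The count of loci called after rFGF1 WT (654) was 107 with the 2-fold limit, 407 with no filter, 170 from only the 4 libraries compared, and 134 to 195 with 1 library left out. After rFGF1 ΔHBS (661) these were 95, 386, 189, and 118 to 198. Between the FGF1 groups (58) it was 37 with the 2-fold limit, 31 at a mean of 5 FPKM, where fewer loci were tested, and 43 to 107 with 1 library left out. Of the 10 genes, 1 was called with either protein at a mean of 5 FPKM, where *Id4* was not tested. From only the 4 libraries compared it was 3 after rFGF1 WT, where *Id3* gained a call (adjusted p = 0.0232), and 1 after rFGF1 ΔHBS. With 1 library left out it was 1 to 3 after rFGF1 WT, 1 to 2 after rFGF1 ΔHBS and 0 to 1 between them. On the pathway list, 1 was called with either protein at a mean of 5 FPKM. After rFGF1 ΔHBS, 2 passed 2-fold, 2 were called with no filter and 1 with 4 libraries. After rFGF1 WT it was 3 with 4 libraries, with *Id3* gained and *Fst* lost. With 1 library left out it was 1 to 3 with either protein and 0 to 1 between them. Apart from the fewer genes or libraries named, the cause was not tested.

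With replicate number as a block (pairing), 41 loci were called after rFGF1 WT, 39 after rFGF1 ΔHBS and 6 between the FGF1 groups, and limma called 0 of the 10 genes and 0 of the pathway list in each comparison with HG. Nothing in the labels pairs the replicates beyond a shared number, and the correlation of replicate differences over 10562 loci was −0.0212 (HG and rFGF1 WT), 0.0980 (HG and rFGF1 ΔHBS) and −0.0467 (rFGF1 WT and rFGF1 ΔHBS).

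Signs changed as follows, none of them for a called value, and the cause was not tested. Between the FGF1 groups with 1 library left out, the log2 fold change ran from −0.135 to 0.0594 for *Id1*, −2.53 to 0.11 for *Id2*, −0.0436 to 0.133 for *Id4*, −0.0660 to 0.0391 for *Bmpr1a*, −0.0345 to 0.0293 for *Bmpr2* and −0.136 to 0.0445 for *Fst*. Against HG it ran after rFGF1 WT from −2.48 to 0.16 for *Id2*, −0.67 to 0.27 for *Bmp4*, −0.24 to 0.61 for *Smad6* and −0.0203 to 0.00984 for *Smad1*, and after rFGF1 ΔHBS from −0.15 to 0.79 for *Bmp4* and −0.32 to 0.53 for *Smad6*. *Smad1* after rFGF1 WT was 0.0425 with quantile normalization and 0.0300 with median-ratio scaling. Read totals were not used here, so the precision of single FPKM values is not known.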
